A study of Mus musculus with 4 samples.

Results

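Genes commonly read as markers of mature astrocytes, namely Aqp4, Gja1, Gjb6, Aldh1l1, S100b, Aldoc, Apoe, Clu, Sparcl1 and Ndrg2, were followed in mouse adult neural stem cells with lowered Ogt. The 10 genes were listed by name, with earlier results of these data known, and were found through GENCODE M21 among the 25261 gene identifiers of the files. All 10 were in the table and all 10 passed the filter on low values, among 21829 genes tested. The cells came from C57BL/6 mice of 8 weeks and had all been infected with lentivirus. In the ctrl group (2 libraries) the virus carried a scrambled short hairpin RNA. In the shOGT group (2 libraries) it carried a hairpin RNA against mouse Ogt, which encodes O-GlcNAc transferase, an enzyme that modifies proteins inside the cell with a single sugar. The sources used here do not say whether the replicates were separate cultures or animals, so p-values measure the spread between these libraries, which may be technical.

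Astrocytes take up water, potassium and glutamate around neurons, are coupled to each other by gap junctions, and supply neurons with lipid and with synapse-promoting proteins. The 10 genes stand for these tasks: a water channel and 2 connexins in the membrane, enzymes and a calcium-binding protein in the cytoplasm, and lipid-carrying and matrix proteins that are secreted. Adult neural stem cells are themselves cells of the astrocyte lineage and share many of these genes, while the same genes become more prominent as astrocytes mature.

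Ogt, the targeted gene, measured 4112 and 4138 in the ctrl libraries and 3379 and 3516 in the shOGT libraries, a fall of its mean by 16.4% (log2 fold change -0.26 ± 0.040 SE, limma adjusted p = 0.00876). Its log2 fold change stayed between -0.29 and -0.23 with any 1 library left out. Its limma adjusted p stayed under 0.05 in 7 of 16 alternative settings. It was 0.115 with no filter on low values, 0.0936 with quantile normalization and 0.349 with no variance trend. Values are the deposited signal per gene; its steps imply 15697508 to 17753976 reads assigned to genes per library. Of the genes that mark the labelled cell type, Sox2 lay between 5250 and 5429 and Nes, nestin, between 13187 and 15395 in the 4 libraries, and Egfr between 5020 and 5573. Prom1, of the same list of 10 markers, was low, between 17.9 and 26.6. Of these 10, 0 were called higher and 2 lower, among them Fabp7 (log2 fold change -0.49 ± 0.044 SE). Markers of other brain cells were low for microglia, where 6 of 8 listed markers were in the table and P2ry12 and Csf1r reached at most 6.60 and 1.06, and for endothelial and mural cells, whose summed levels ran from 49.9 to 74.5 and from 69.8 to 110. The 8 neuronal markers summed to 643 to 646 in ctrl and 717 to 826 in shOGT, and the 4 ependymal markers in the table to 656 to 700 and 775 to 813. Most of the ependymal sum was Foxj1, with 558 and 620 in ctrl and 731 and 677 in shOGT. Rsph1, Dynlrb2 and Ccdc153 were low and had log2 fold changes of -0.13, 0.0023 and 0.28. The 6 neuroblast markers summed to 2968 and 2980 in ctrl, against 3444 and 2954 in shOGT, mostly Sox11 (2382 to 2908). The 7 oligodendrocyte markers summed to 2210 and 2204 in ctrl, against 2148 and 2093 in shOGT, mostly Cnp (1882 to 1991). The neuronal, ependymal, neuroblast and oligodendrocyte lists held 0 called genes, and the part of such cells in the results was not tested. In RNA from whole cultures, fewer cells of a type and less RNA per cell cannot be told apart.

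Of the 10 astrocyte genes, 2 fell and 0 rose: Aldh1l1, a folate enzyme widely used to label astrocytes, by 12.1%, and Gja1, the gene of connexin 43, the main gap junction protein of astrocytes, by 12.8%. A gene is called here when limma's Benjamini-Hochberg adjusted p over all genes tested is under 0.05. By this rule 4.86% of all genes tested were called and 2.9% were called lower, against 2 of 10 here. The median log2 fold change of the 10 genes was -0.14, beside 0.0012 over all genes tested, with a range from -0.72 (Gjb6) to 0.13 (Clu). In 6 of the 10, both shOGT values lay below both ctrl values, which was so for 24.3% of all genes tested; in 2 of the 10 both lay above, beside 25.0% of all. Fold changes of Aqp4, both connexins, Aldh1l1, Sparcl1 and Ndrg2 were negative, and those of S100b, Aldoc, Apoe and Clu were positive and did not pass the test. Over all genes 427 rose and 633 fell, or 593 and 585 with the libraries rescaled to equal totals, where Gja1 and Aldh1l1 were again called. Of 16 alternative settings, 9 called 0 of the 10 genes, namely no filter on low values, quantile normalization, no variance trend, and 6 of the 8 fits that left out 1 library.

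**Figure D1:**
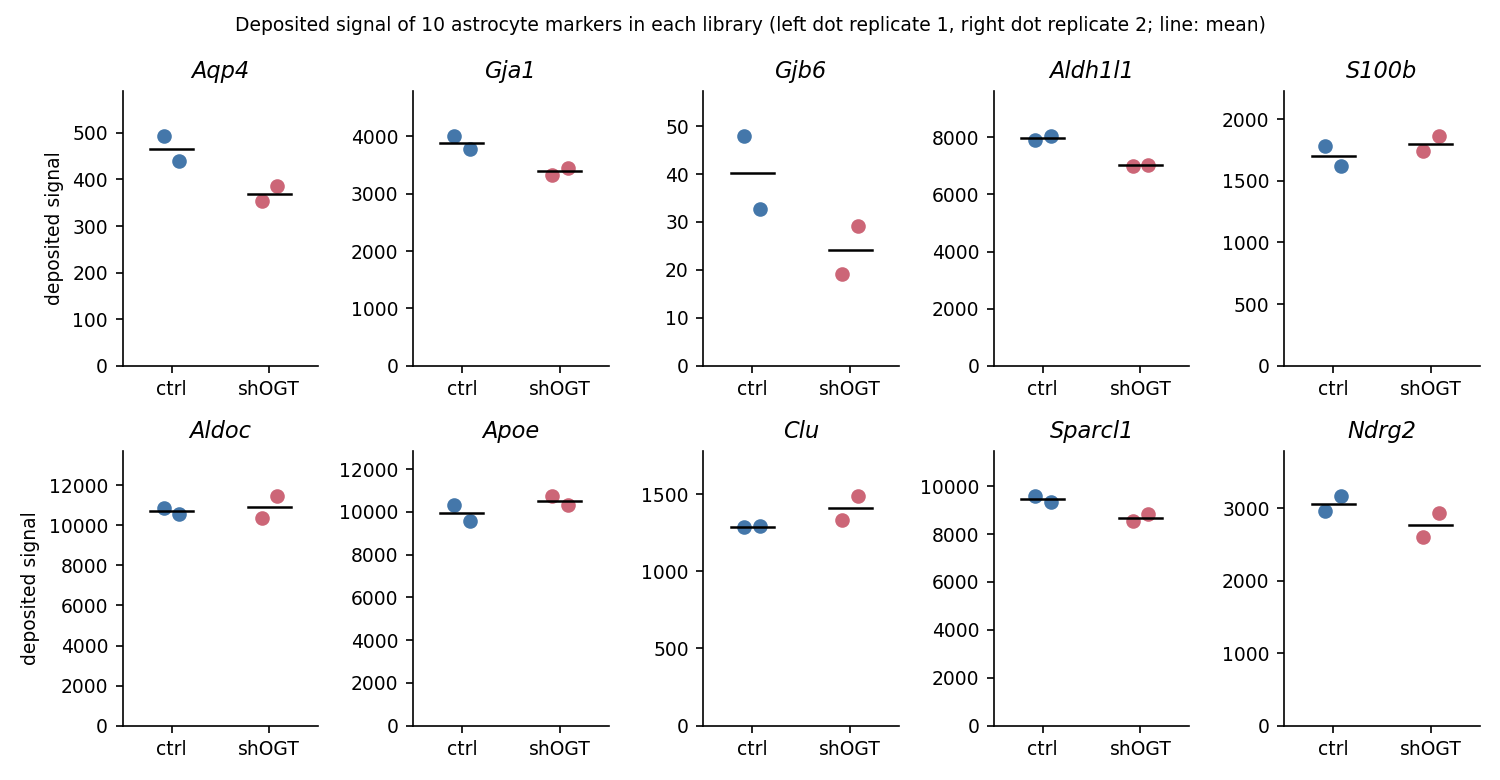
Deposited signal (vertical axes, each from 0) of the 10 genes in the 2 ctrl (blue) and 2 shOGT (red) libraries; each dot is a library and each line a group mean. Aldh1l1 sits at 7925 and 8038 in ctrl and at 7002 and 7034 in shOGT, whereas the groups of S100b and Aldoc overlap.

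The 2 genes that fell are shown by the sequence before their transcription start, to show which short motifs their promoters do and do not share. Each line gives 250 bases 5′ of the start on the gene's strand, from RefSeq on GRCm38.p6, for Gja1 at chr10:56377050-56377299 and for Aldh1l1 at chr6:90550543-90550792, both on the plus strand. The Aldh1l1 start of RefSeq lies inside the longer gene span that GENCODE gives. Capitals mark matches to 6 short motifs, searched on both strands. These were TGGGAA, the core bound by Rbpj, the DNA-binding partner of Notch, TTCNNNGAA, bound by STAT factors, the full palindrome of nuclear factor I, the TATA box TATAAA, the CCAAT box, and the GC box GGGCGG.
Gja1: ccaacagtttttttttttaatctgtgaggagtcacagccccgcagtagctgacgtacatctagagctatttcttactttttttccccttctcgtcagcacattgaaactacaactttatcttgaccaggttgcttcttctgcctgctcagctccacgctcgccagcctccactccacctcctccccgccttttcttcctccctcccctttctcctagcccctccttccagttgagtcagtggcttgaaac
Aldh1l1: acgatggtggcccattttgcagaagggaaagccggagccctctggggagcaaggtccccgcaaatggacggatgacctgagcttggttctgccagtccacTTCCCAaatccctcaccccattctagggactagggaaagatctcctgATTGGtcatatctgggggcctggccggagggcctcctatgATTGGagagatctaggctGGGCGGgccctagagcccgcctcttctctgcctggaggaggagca
The Gja1 window held no match to any of the 6. That of Aldh1l1 held 1 TGGGAA on the opposite strand, 2 CCAAT on the opposite strand and 1 GGGCGG. Among 27025 such windows, 1 per gene, TGGGAA occurred in 21.5%, CCAAT in 34.5%, GGGCGG in 32.9%, TATAAA in 12.97% and the nuclear factor I palindrome in 0.0407%. Of the 10 genes, 7 had windows in the table, and Aqp4, Clu and Sparcl1 had none. TGGGAA was also found once before S100b and once before each of 2 Aldoc starts, genes that were not called, and TTCNNNGAA, which 7.18% of windows held, 2 times before the second Aldoc start. A match is a description of the letters and not a site of binding.

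Gja1 (ENSMUSG00000050953, chromosome 10, 56377330 to 56402513, plus strand) gave 4001 and 3777 in ctrl, against 3330 and 3452 in shOGT. Both shOGT libraries lay below both ctrl libraries, with group means of 3889 ± 158 and 3391 ± 86.3 (SD, n = 2 each). The log2 fold change was -0.20 ± 0.044 SE (95% interval -0.30 to -0.10, adjusted p = 0.0368). The call was lost when ctrl 1 was left out (-0.16, adjusted p = 0.174), and likewise shOGT 1 (-0.17, 0.309) or shOGT 2 (-0.22, 0.293).

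Gjb6, the gene of connexin 30, which forms gap junctions of mature astrocytes in particular, gave 47.9 and 32.7 in ctrl, against 19.1 and 29.2 in shOGT. The shOGT libraries were the lower ones, but ctrl 2 and shOGT 2 lay closer to each other than to the other library of their group. Its log2 fold change was -0.72 ± 0.32 SE (95% interval -1.44 to 0.0012, adjusted p = 0.259), and -0.43 without shOGT 1 and -1.01 without shOGT 2. Per kilobase of exon Gjb6 (ENSMUSG00000040055, chromosome 14, 57123303 to 57133611, minus strand) stood at 4.59% and 3.32% of Gja1 in ctrl and at 2.2% and 3.25% in shOGT. Per kilobase of the longest coding transcript it stood at 1.81% and 1.31% in ctrl and at 0.869% and 1.28% in shOGT. The other connexins were low as well. Of the 17 other connexin genes listed, 12 are in the table and 8 were tested, with 0 called; the highest per kilobase was Gjc3, at 47.1 in ctrl against 379 for Gja1.

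Aqp4, the water channel of astrocyte endfeet, gave 493 and 440 in ctrl, against 353 and 386 in shOGT. Both shOGT libraries were lower than both ctrl libraries, and the means differed by -20.7%. The log2 fold change was -0.33 ± 0.089 SE (95% interval -0.53 to -0.13), and its adjusted p of 0.0671 missed the threshold. With genes required to reach 10 in at least 2 libraries Aqp4 passed (adjusted p = 0.0218), as did Sparcl1 (0.041). At that minimum 4 of the 10 genes were called lower, beside 7.32% of the 15475 genes tested. Aqp4 (ENSMUSG00000024411) lies on the minus strand of chromosome 18. Among its relatives Aqp11, an aquaporin of intracellular membranes, was the highest per kilobase, at 17.1 in ctrl and 16.3 in shOGT, beside 74.9 and 59.3 for Aqp4; of 5 aquaporins tested besides Aqp4, 0 were called.

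**Figure D2:**
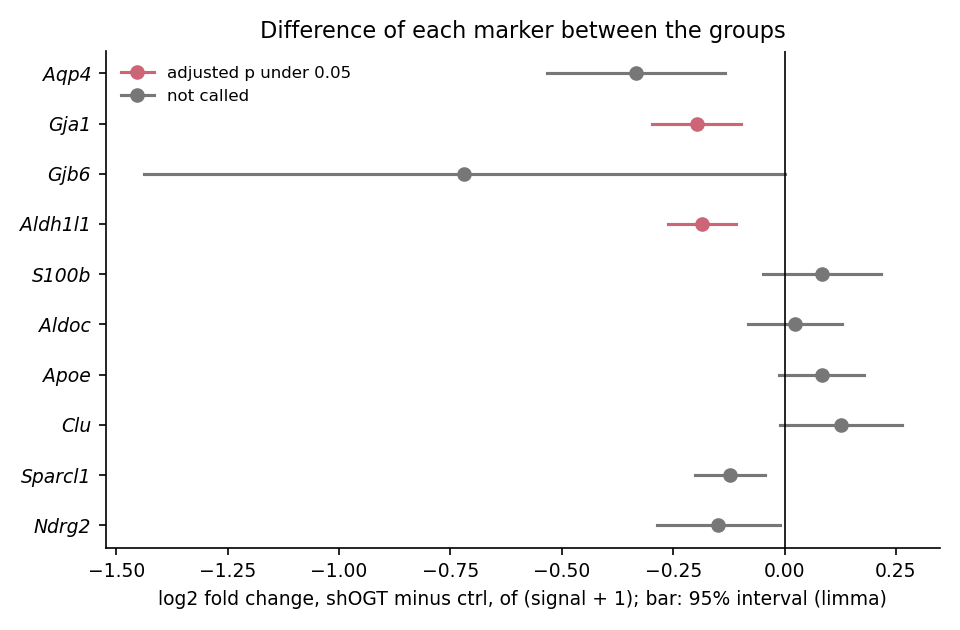
Log2 fold change of signal + 1, shOGT minus ctrl (horizontal axis), of the 10 genes with limma's 95% interval as a bar; red marks the 2 genes with an adjusted p under 0.05. The intervals of Aqp4, Gja1, Aldh1l1, Sparcl1 and Ndrg2 lie below 0, and those of the other 5 genes include 0.

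Aldh1l1, cytosolic 10-formyltetrahydrofolate dehydrogenase (ENSMUSG00000030088, chromosome 6, 90486427 to 90600203, plus strand), gave 7925 and 8038 in ctrl, against 7002 and 7034 in shOGT. The libraries of a group lay close together and the groups apart, at 7982 ± 79.6 and 7018 ± 22.6 (SD, n = 2 each). Its log2 fold change of -0.19 ± 0.034 SE (95% interval -0.26 to -0.11, adjusted p = 0.0158) was between -0.20 and -0.18 with any one library left out. The adjusted p was 0.0212 and 0.0481 when ctrl 1 or ctrl 2 was left out, but 0.35 and 0.357 when those fits kept all 21829 genes, and it was 0.285 and 0.288 when shOGT 1 or shOGT 2 was left out. Exons of Aldh1l1 share 499 bases with the antisense gene Gm15756 (mean 9.54) and 105 with Gm45901 on the same strand (mean 0.732), and whether counting used strand is not given in the sources used here; the other 9 genes share no exon with another gene. Its mitochondrial relative Aldh1l2 gave 638 and 598 in ctrl, against 512 and 578 in shOGT (log2 fold change -0.18 ± 0.080 SE, adjusted p = 0.248). Among 13 listed aldehyde dehydrogenases and folate enzymes the 1 called gene was Aldh2, the mitochondrial acetaldehyde-oxidising enzyme, which rose (0.21 ± 0.052 SE, adjusted p = 0.0499).

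Aldoc, aldolase C, the brain form of a glycolytic enzyme (ENSMUSG00000017390, chromosome 11, 78322968 to 78327781, plus strand), gave 10867 and 10554 in ctrl, against 10353 and 11443 in shOGT. The ctrl values lay inside the span of the shOGT values. The log2 fold change was 0.023 ± 0.047 SE, its 95% interval ran from -0.082 to 0.13 (adjusted p = 0.847), and its sign turned without shOGT 2 (-0.049). Aldoa, the form found in most tissues, gave 10770 and 10072 in ctrl, against 9516 and 8672 in shOGT. Its log2 fold change of -0.20 ± 0.050 SE just missed the threshold (adjusted p = 0.0556). In ctrl the forms were at like levels per kilobase, 3580 for Aldoa and 3283 for Aldoc, and in shOGT they stood at 3124 and 3340.

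S100b, a calcium-binding protein that appears late in astrocyte development (ENSMUSG00000033208, chromosome 10, 76253853 to 76261159, plus strand), gave 1780 and 1622 in ctrl, against 1745 and 1861 in shOGT. The groups overlapped, and the log2 fold change of 0.085 ± 0.059 SE had a 95% interval of -0.048 to 0.22 (adjusted p = 0.483). Of 10 other S100 genes in the table, 8 were tested and 1 fell: S100a16, with 658 and 722 in ctrl and 526 and 502 in shOGT (-0.42 ± 0.073 SE, adjusted p = 0.0137). S100a10, the partner of annexin A2, had the highest level per kilobase, 2271 in ctrl and 1969 in shOGT, beside 1146 and 1215 for S100b.

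Ndrg2, a cytoplasmic protein of the N-myc downstream-regulated family that is found in astrocytes (ENSMUSG00000004558, chromosome 14, 51905271 to 51914158, minus strand), gave 2966 and 3166 in ctrl, against 2601 and 2939 in shOGT. The groups did not overlap, though shOGT 2 came close to ctrl 1. The log2 fold change was -0.15 ± 0.061 SE (95% interval -0.29 to -0.011, adjusted p = 0.221), and -0.060 without shOGT 1. Its relatives Ndrg3 (0.12 ± 0.045 SE) and Ndrg4 (0.16 ± 0.049 SE) had fold changes of the other sign, and neither passed (adjusted p = 0.161 and 0.113).

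Apoe, the main lipid carrier secreted by astrocytes (ENSMUSG00000002985, chromosome 7, 19696109 to 19699188, minus strand), gave 10321 and 9566 in ctrl, against 10731 and 10321 in shOGT. The lower shOGT library and the higher ctrl library were all but equal. The log2 fold change was 0.083 ± 0.043 SE, with a 95% interval of -0.013 to 0.18 (adjusted p = 0.328). Clu, clusterin or apolipoprotein J, a secreted chaperone that also travels on lipoproteins (ENSMUSG00000022037, chromosome 14, 65968483 to 65981547, plus strand), gave 1287 and 1292 in ctrl, against 1334 and 1486 in shOGT. Both shOGT values were higher, yet shOGT 1 exceeded ctrl by little, and the log2 fold change of 0.13 ± 0.061 SE (adjusted p = 0.294) was 0.049 without shOGT 2 and 0.20 without shOGT 1. The other apolipoprotein genes were low: the 6 that were tested summed to 64.8 and 70.4 in ctrl and to 80.8 and 94.3 in shOGT, with 0 called.

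Sparcl1, or hevin, a matrix protein by which astrocytes promote synapses (ENSMUSG00000029309, chromosome 5, 104079111 to 104113733, minus strand), gave 9575 and 9349 in ctrl, against 8544 and 8838 in shOGT. Both shOGT libraries were lower, and the means differed by -8.15%. The log2 fold change of -0.12 ± 0.035 SE (95% interval -0.20 to -0.044) had an adjusted p of 0.0838. Sparc, a relative that is known to oppose hevin at synapses, gave 3461 and 3472 in ctrl, against 3160 and 3709 in shOGT (-0.018 ± 0.066 SE). In the same family of 6 tested relatives, Fstl1, a secreted glycoprotein, fell (-0.36 ± 0.064 SE, adjusted p = 0.0156) and so did Spock2, testican 2, a proteoglycan (-0.27 ± 0.061 SE, adjusted p = 0.0385).

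**Figure D3:**
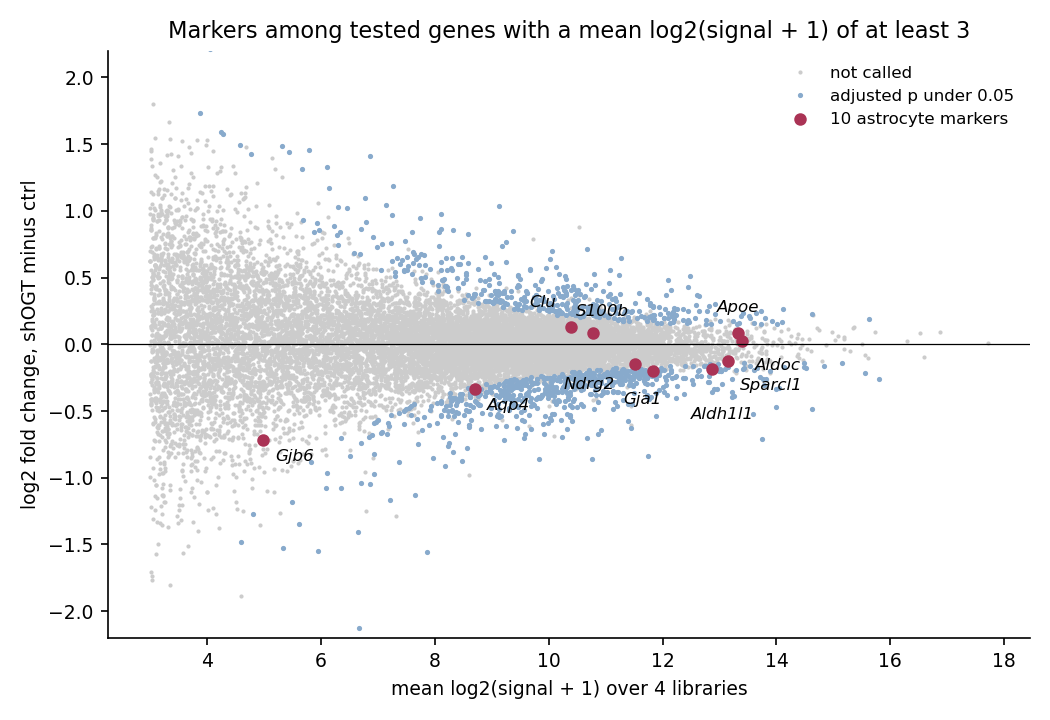
Mean log2(signal + 1) over the 4 libraries (horizontal) against log2 fold change, shOGT minus ctrl (vertical), for 15972 tested genes with a mean of at least 3; 2 further genes lie beyond 2.2 on the vertical axis. The 10 astrocyte genes (large dots) lie inside or at the edge of the cloud of genes that were not called (grey), and called genes are blue.

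Compared per kilobase of merged exons in ctrl, the 10 genes spanned from 4651 ± 249.8 for Apoe to 15.1 ± 4.0 for Gjb6 (SD, n = 2). The order was Apoe, Aldoc, Sparcl1, Aldh1l1, S100b, Ndrg2, Gja1, Clu, Aqp4 and Gjb6. Aldoc (3283 ± 67.8) and Sparcl1 (3222 ± 54.3) overlapped between libraries, as did Gja1 (379 ± 15.4) and Clu (375 ± 0.836), while all other neighbours were apart. Among protein-coding genes tested, Apoe stood at the percentile 99.3 of this level, Aldh1l1 at 97.5, Aqp4 at 47.8 and Gjb6 at 26.7. The lipid carrier and the folate enzyme thus ranked among the highest genes of these cells, whereas the endfoot water channel and connexin 30 ranked in the middle and below it. The measure depends on the length used: per kilobase of the longest coding transcript Gja1 stood at place 6 instead of 7, at 1222, and S100b at place 7 instead of 5. Summed, the 10 genes made up 0.292% and 0.282% of all signal in ctrl and 0.276% and 0.286% in shOGT, and these groups overlapped.

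**Figure D4:**
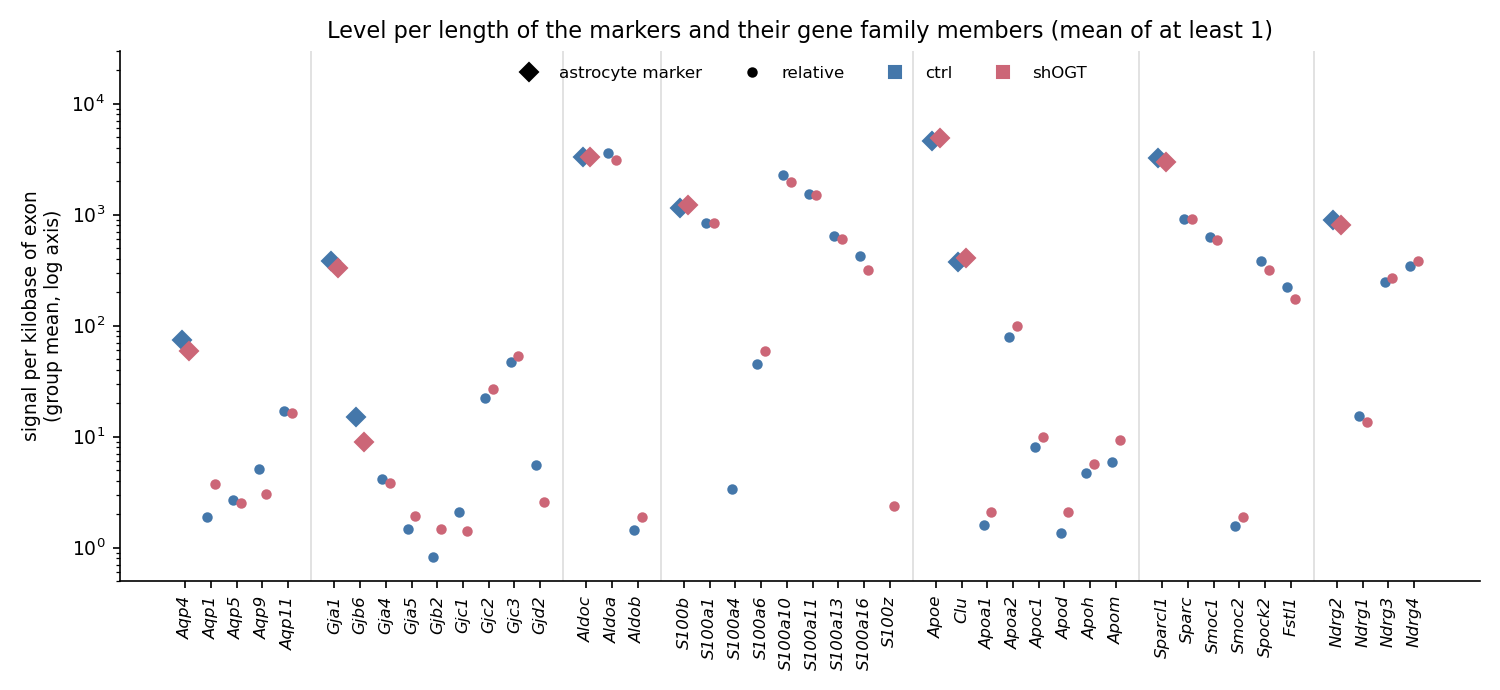
Signal per kilobase of exon (group mean, log axis) of the astrocyte genes (diamonds) and of their family members with a mean of at least 1 (circles), in ctrl (blue) and shOGT (red); vertical lines part the families, a group at 0 has no point, and Aldh1l1 is not drawn. Aqp4, Gja1, Apoe, Sparcl1 and Ndrg2 each exceed the relatives drawn, Aldoa is level with Aldoc, and S100a10 and S100a11 exceed S100b.

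Other astrocyte genes, taken from lists by role, moved in both directions, so that rises stood beside the falls of Gja1 and Aldh1l1. Over all 21829 genes tested, 427 rose and 633 fell, so that 4.86% were called and 2.9% were called lower. The counts of this and every other list stand beside these shares, and no list was tested as a set. Of 21 further membrane and junction genes, 4 rose and 1 fell, with a median of -0.021. Kcnj10, the potassium channel Kir4.1 that sits beside Aqp4 in endfeet, rose from 1042 and 1087 to 1451 and 1377 (0.41 ± 0.055 SE, adjusted p = 0.00467), and Mlc1, an endfoot membrane protein, rose by 0.16 ± 0.035 SE. Slc6a11, a GABA transporter (0.21 ± 0.043 SE), and Slc4a4, a bicarbonate transporter (0.25 ± 0.055 SE), rose as well. Slc1a2, the glutamate transporter of mature astrocytes, fell from 3552 and 3367 to 2271 and 2210 (-0.63 ± 0.045 SE, adjusted p = 0.00053). Hepacam, a cell adhesion molecule that binds Mlc1 and connexin 43, measured -0.17 ± 0.041 SE and missed the threshold (adjusted p = 0.051).

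Among 20 metabolic enzymes, 4 rose and 1 fell, with a median of -0.017. Glul, glutamine synthetase (0.43 ± 0.039 SE), Gstm1, a glutathione transferase (0.48 ± 0.040 SE), Pygm, a glycogen phosphorylase (0.29 ± 0.048 SE), and Acsbg1, an acyl-CoA synthetase (0.15 ± 0.032 SE), rose, and Acsl3, another acyl-CoA synthetase, fell (-0.20 ± 0.039 SE). Of 17 tested genes of lipoprotein handling, which act with Apoe and Clu, 1 rose and 4 fell, with a median of 0.022. Abca1, the cholesterol exporter that loads Apoe with lipid, rose from 1056 and 1033 to 1365 and 1619 (0.51 ± 0.076 SE, adjusted p = 0.00754). Of the receptors, Vldlr (-0.45 ± 0.081 SE) and Lrp8 (-0.34 ± 0.060 SE), which bind Apoe, fell, as did Scarb1, a receptor for high-density lipoprotein (-0.33 ± 0.058 SE), and Lrpap1, a chaperone of such receptors (-0.21 ± 0.048 SE).

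Of 16 secreted astrocyte proteins, 1 rose (Cpe, carboxypeptidase E, 0.23 ± 0.029 SE) and 2 fell (Igfbp2, -0.14 ± 0.028 SE, and the glypican Gpc6, -0.36 ± 0.085 SE). Of 14 transcription factors of astrocytes, 0 rose and 3 fell, with a median of -0.13: Zbtb20 (-0.27 ± 0.041 SE), Nfic (-0.28 ± 0.049 SE) and Lhx2 (-0.56 ± 0.12 SE). Among 12 genes of radial glia and immature astrocytes, 0 rose and 2 fell, among them Fabp7, a fatty acid binding protein (-0.49 ± 0.044 SE). Gfap, the intermediate filament of astrocytes, gave 1125 and 1169 in ctrl, against 1185 and 1762 in shOGT (adjusted p = 0.234). None of these calls held without shOGT 1 or without shOGT 2: limma then called 0 genes in all, though 3229 and 3186 had an unadjusted p below 0.05. Exons overlap those of another gene for Slc1a2, Glul, Acsl3, Aldh2, Aldh1l2, Aldoa, Nfic and Zbtb20. The same is so for the cell type markers P2ry12, Csf1r, Prom1 and Cnp.

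**Figure D5:**
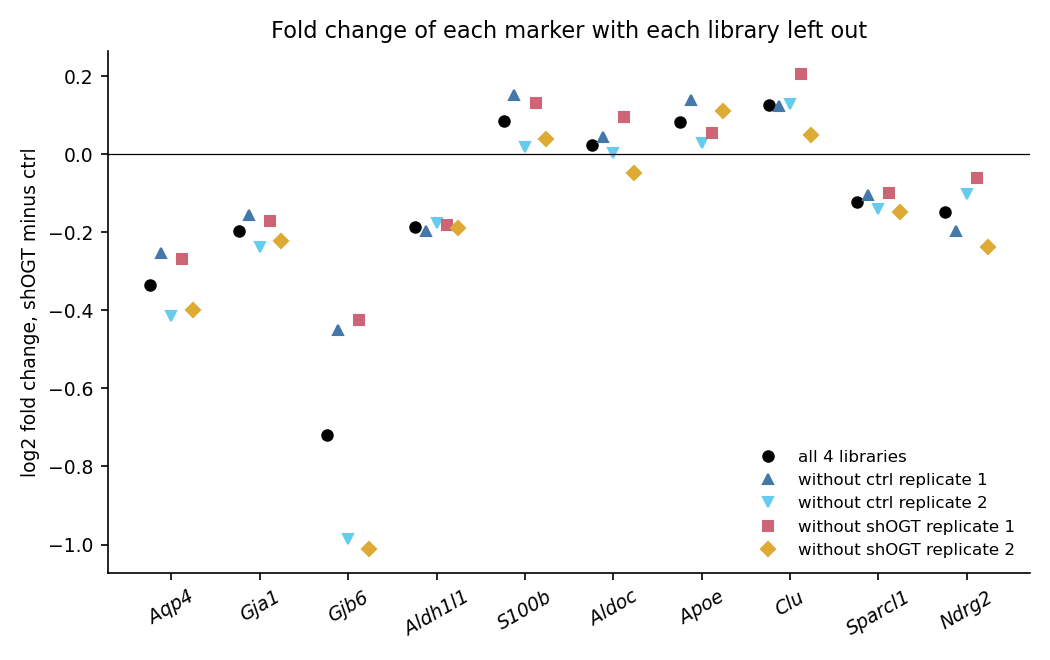
Log2 fold change, shOGT minus ctrl (vertical axis), of the 10 genes with all 4 libraries (black) and with each library left out in turn (coloured symbols). The values of Aldh1l1 stay between -0.20 and -0.18, those of Gjb6 spread from -1.01 to -0.43, and Aldoc changes sign without shOGT 2.

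Sites of 2 hexamers in the 3′ UTRs of the 10 genes are given because an earlier look at these libraries had found GCTATC or GTACCC more often in genes that were lower in shOGT. Over the longest annotated 3′ UTR per gene, 1 or both of them occurred in 55.1% of 612 genes called lower, 29.6% of 409 called higher and 28.1% of 14088 not called. The median 3′ UTR lengths of these groups were 1566, 1731 and 1122 bases. GTACCC occurred once each in Aldh1l1, Aldoc and Gjb6, and GCTATC in none of the 10. A further motif of that look, GTGTCAC, which 8.497% of genes called lower, 20.8% of genes called higher and 10.3% of those not called held, occurred once in Aldh1l1 and in none of the other 9. These motifs were picked from the same libraries, so their shares among called genes are not independent evidence. The sites, with the hexamer in capitals and 11 bases on either side, read as follows (GENCODE M21).
Aldh1l1: atacttctcctGTACCCtgttgacctca
Aldoc: cttacattgctGTACCCgagaccacagg
Gjb6: cttctgagcatGTACCCtctttgtagac
The hexamer thus lay in 1 of the 2 genes that fell, Aldh1l1, in Gjb6, which did not pass the test, and in Aldoc, whose log2 fold change was 0.023. The 3′ UTR of Gja1, of 1720 bases, held neither. What part these letters have in the fold changes was not tested.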

How the data were processed

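Total RNA of 4 libraries was sequenced, 2 of ctrl and 2 of shOGT; groups and replicate numbers came from the sample titles. Each deposited file holds the signal of 1 library by gene, scaled by the authors in a way not given in the sources used here; the build is mm10, per the submitters' processing notes. Within 0.01 of a step, 100% of values were whole multiples of 1 step per library (0.943 to 1.06), as counts divided by a factor would be. A chi-square per gene was 2.02 between ctrl and 3.33 between shOGT libraries, where sampling noise gives 1, so each counted as 1 sample.

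The comparison used limma 3.58.1 (R 4.3.3), with a variance trend, on log2(value + 1) of the 21829 genes at 1 or more in at least 2 libraries; a fold change on this scale understates low genes. P-values were adjusted over all these genes. An exact permutation test of 2 against 2 cannot go below p = 0.333. Symbols and positions came from GENCODE M21 (GRCm38), which matched 25250 identifiers. Values per kilobase used merged exons. The members, lists and tests were chosen with earlier results of these data known. The text names all 10 members, Ogt, up to 4 called genes per list with the smallest p, and called members of the gene families. Slc4a4, Acsbg1 and Lrpap1, the fifth called genes of their lists, and genes named although not called, were picked after their values were seen. S100pbp was dropped from the S100 list, being no S100 gene. One called gene of the radial glial list is not reported here.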

Additional observations from a re-analysis of the deposited data

How the results depend on the processing

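Of the 16 alternatives run, 8 gave other fold changes than the main ones, and the rest left them as they were or repeated them over other genes. Over these 8, fold changes of 9 of the 10 genes and of Ogt kept their sign; Aldoc (0.023) turned to -0.049 without shOGT replicate 2, over either set of genes, and reached 0.096 without shOGT replicate 1. From 1060 called genes and 2 called members, a minimum of 10 gave 1955 and 4, while no filter, no variance trend and quantile normalization each gave 0 and 0, though 4302, 2763 and 3998 genes had an unadjusted p below 0.05. Quantile normalization moved the members' median from -0.14 to -0.10. Rescaling to equal totals gave 1178 calls, with 593 higher and 585 lower, beside 427 and 633 as deposited. Leaving out 1 library gave 0 to 1220 called genes, 0 to 3 called members and medians of -0.17 to -0.079; kept to the genes of the full comparison, an alternative chosen after seeing the data, it gave 0 calls each time, though 2484 to 3389 genes had an unadjusted p below 0.05. The lone library of a group is then assumed to vary like the other group. The cause was not tested. A replicate block gave 2302 called genes and 5 called members, but the titles share only a number: deviations of same-numbered libraries correlated at 0.01 across 14427 genes. A further 8 alternatives, which need whole read counts, were not run, as the deposited values were kept as signal. At 2 libraries a group and this depth, the 95% interval of a gene as low as Gjb6 spans -1.44 to 0.0012.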

Other observations

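Reactive astrocyte genes, a list apart from the 10 markers, had positive fold changes in 16 of 20 cases, with a median log2 fold change of 0.30 beside 0.0012 over all genes tested. None was called by limma, and 9 had an unadjusted p under 0.05, as had 19.3% of all genes tested. Levels within the list differed widely. Lcn2, C3 and Aspg, all with positive fold changes, reached at most 3.77, 11.7 and 17.9 in any library. Serpina3n lay between 1112 and 1405 (log2 fold change 0.14 ± 0.089 SE) and Cd109 between 3566 and 3952 (-0.065 ± 0.050 SE). Cp gave 2085 and 2195 in ctrl, against 2386 and 2687 in shOGT (0.24 ± 0.060 SE, limma adjusted p = 0.053). Marker lists of other cells had positive medians too, 0.36 for 8 neuronal markers (7 above 0) and 0.36 for 4 endothelial markers (4 above 0), and their part in this was not tested. Osmr, the receptor of oncostatin M, gave 183 and 174 in ctrl, against 218 and 292 in shOGT (0.50 ± 0.14 SE, adjusted p = 0.0827), and Psmb8, an immunoproteasome subunit, gave 54.9 and 81.3 in ctrl, against 120 and 113 in shOGT (0.79 ± 0.20 SE, adjusted p = 0.0597). Exons of Psmb8 overlap those of Gm20496, and exons of Cp overlap those of Hps3. Ptx3 and S100a10 of the reactive list were lower in both shOGT libraries (-0.72 ± 0.28 SE and -0.21 ± 0.055 SE). All genes named here from the reactive list were picked by eye after their values were seen.

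Markers of oligodendrocyte progenitors were uneven. Olig1 and Olig2, transcription factors of that lineage, lay between 36350 and 37848 and between 19015 and 20158 in the 4 libraries; their ctrl levels per kilobase, 16999 and 7534, exceeded those of all 10 astrocyte markers. Sox10, which progenitors express as well, lay between 18.9 and 29.8. Cspg4, of the same list, lay between 1868 and 2384 and was not called (-0.18 ± 0.076 SE, limma adjusted p = 0.232). Pdgfra, a growth factor receptor of progenitors, fell (-1.13 ± 0.11 SE, adjusted p = 0.0013). Gpr17, a receptor of cells on the way to oligodendrocytes, fell as well, from 211 and 237 to 131 and 112 (-0.88 ± 0.13 SE, adjusted p = 0.00738), and its exons overlap those of Lims2. Exons of Pdgfra overlap those of Gm42802, Gm42803 and Mir7025, and exons of Olig1 overlap those of Gm15966.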
